A study of Mus musculus with 4 samples.

Results

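The 8 genes described here encode subunits of potassium and chloride channels of the kidney tubule. They are *Kcnj1*, *Kcnj10*, *Kcnj15*, *Kcnj16*, *Kcnma1*, *Kcne1*, *Kcnq1* and *Bsnd*. They were chosen by symbol among the 31053 genes of the count tables and not by a cutoff on their values, but with earlier results of these data known. Their levels were followed in single-nucleus RNA-seq of the kidney, in which each RNA molecule captured from a nucleus carries a unique molecular identifier (UMI) and is counted once. The tissue was a slice from the middle of the kidney with the cortex trimmed, from male mice of 12 weeks. The control mice (n = 2) carried no Cre and were homozygous for the floxed *Tfap2a* allele, and the knockout mice (n = 2) were Hoxb7Cre+;Tfap2afl/fl littermates. Every mouse of either group therefore carried loxP sites around exons 5 and 6 of *Tfap2a*, an AP-2 transcription factor gene, and the groups differed in Cre. Hoxb7Cre acts in the collecting duct and in the epithelium of the lower urinary tract, so most nephron segments in the tables come from cells outside its reach. Each mouse gave 1 library.

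Potassium leaves tubule cells through channels of both cell faces. On the luminal face of the distal tubule and collecting duct, channels secrete potassium into the urine or return it to the lumen for salt uptake. On the blood side, potassium channels set the voltage that drives transport and return the potassium brought in by the sodium pump. Chloride leaves on the blood side through channels that need barttin, the product of *Bsnd*, to reach the membrane. Loss of several of these channels causes salt wasting in humans.

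After filtering, 7737 and 5430 nuclei remained in control mice 1 and 2, and 7997 and 6177 in knockout mice 1 and 2, with medians of 2506 to 2797 UMIs per nucleus. Pairs of libraries shared 7 to 18 barcodes, against 4.94 to 9.11 expected by random draw, and each pair lay above its own expected number. The cause was not tested. Nuclei fell into 12 broad classes and, within the larger tubule classes, into 12 subclasses, which were named from marker genes. The channel genes were kept out of the genes used for clustering. Levels are given in CPM, the UMIs of a gene divided by all UMIs of the class in that mouse and scaled in the usual way for this unit, and a comparison of CPM is made only within a gene. The libraries of mouse 1 of each group stood apart: 51.8% and 48.2% of their UMIs lay in the nuclei kept, against 64.6% and 84.3% in mouse 2 of each group. The *Tfap2a* transcript was counted in CD principal cells (CD-PCs) at 57.2 and 98.2 CPM in control mice, against 66.0 and 106 CPM in knockout mice. These are 3' tags, which can lie outside the deleted exons and so do not check the deletion there. In the deep medullary epithelium of the pelvis (DMEP), *Tfap2a* had 11 UMIs in each control mouse and 0 in each knockout mouse, where 0 allows up to 21.8 and 18.6 CPM.

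**Figure D1:**
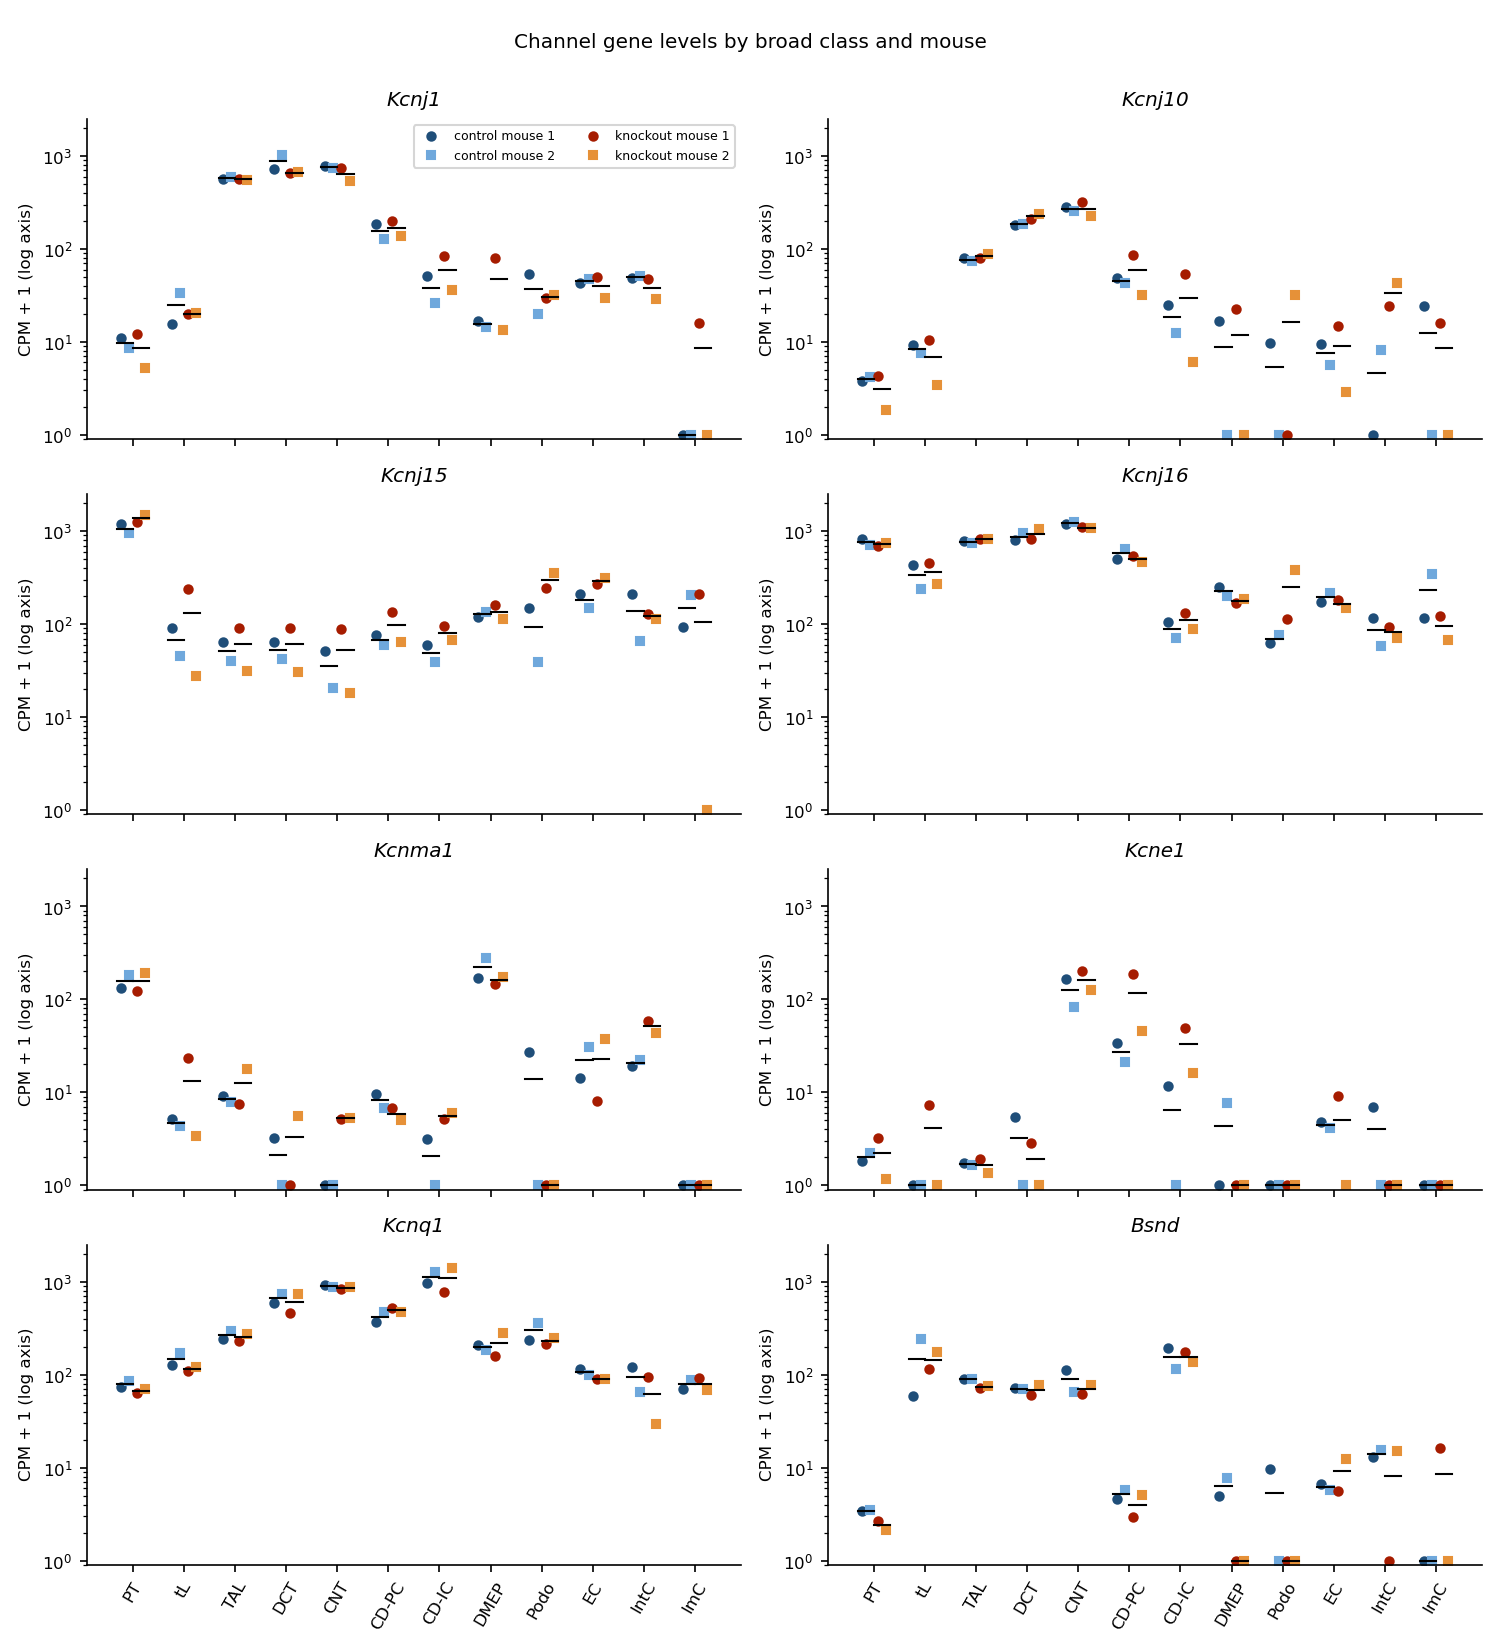
Level of each of the 8 channel genes (CPM + 1, log axis) in the 12 broad classes. Points are mice, circles for mouse 1 and squares for mouse 2 of each group, blue for control and red or orange for knockout, and black bars are group means. *Kcnj15* stands highest in the proximal tubule, and *Kcnj1*, *Kcnj10* and *Kcnj16* in the distal convoluted and connecting tubules, with control and knockout mice side by side.

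*Kcnj1* lies on chromosome 9 at 32372418 to 32399197 of GRCm38.p6 (the patched form of mm10) and encodes ROMK, the luminal potassium channel that recycles potassium in the thick ascending limb (TAL) and secretes it further on. It was highest in the distal convoluted tubule (DCT), at 722 and 1029 CPM in the control mice and 650 and 673 CPM in the knockout mice. The connecting tubule (CNT) followed, with 772 and 748 CPM in control and 740 and 541 CPM in knockout mice, and the ranges of these neighbours in the order overlapped. TAL held 568, 591, 570 and 548 CPM in control 1, control 2, knockout 1 and knockout 2, the narrowest spread of the 3 classes. CD-PCs came next with 126 to 199 CPM, apart from TAL in all 4 mice. All other classes stayed at 82.0 CPM or below, and the proximal tubule (PT) at 4.27 to 11.1 CPM.

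The CD-PC value averages unlike nuclei. CD-PC nuclei split into an Aqp3-high subcluster and an Aqp3-low subcluster, in which 75.1% and 76.7% of nuclei had a UMI of *Scnn1b*, a subunit of the epithelial sodium channel, and into nuclei with inner medullary markers (IMCD type), in which 0.862% to 15.3% did. *Kcnj1* stood at 972 and 360 CPM in the Aqp3-high nuclei of the control mice and at 507 and 494 CPM in those of the knockout mice. Aqp3-low nuclei held 256 to 352 CPM. IMCD type nuclei held 8.73 to 17.4 CPM, so that the Aqp3-high level was 29.2 to 111 times the IMCD level of the same mouse. *Slc12a1*, the sodium-potassium-chloride cotransporter that defines TAL, was also highest in control mouse 1, at 1147 CPM in that mouse's Aqp3-high nuclei. It stood at 333, 85.0 and 50.9 CPM in those of the other 3 mice, in the order control 2, knockout 1, knockout 2. Control mouse 2, second in *Slc12a1*, had the lowest *Kcnj1* of these nuclei. In TAL itself *Slc12a1* stood at 16314 to 20393 CPM, beside *Kcnj1* at 548 to 591 CPM. The part of TAL RNA in the *Kcnj1* level was not tested.

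*Kcnma1* (chromosome 14, 23292288 to 24005110) encodes the pore of BK, a potassium channel opened by calcium and voltage that is known for potassium secretion under high urine flow in the CNT and collecting duct. There its transcript was at or near the limit of this depth. In CNT it had 0 UMIs in each control mouse, which allows up to 6.84 and 8.40 CPM, while knockout mice 1 and 2 gave 3 and 2 UMIs. In CD intercalated cells (CD-ICs) it had 1, 0, 2 and 2 UMIs in control 1, control 2, knockout 1 and knockout 2, and in CD-PCs 4.01 to 8.69 CPM. The classes that held it were DMEP, at 170 and 275 CPM in control and 145 and 173 CPM in knockout mice, and PT, at 130 and 183 CPM in control and 123 and 192 CPM in knockout mice. These overlapped each other and lay above every other class in all 4 mice.

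Along the proximal tubule *Kcnma1* was higher in S3-like than in S1-like nuclei. It stood at 1.53, 21.3, 7.26 and 18.2 CPM in PT-S1 of control mice 1 and 2 and knockout mice 1 and 2, at 105 to 199 CPM in PT-S2 and at 272, 219, 284 and 350 CPM in PT-S3. The order S1, S2, S3 held in each of the 4 mice, and the S3 level was 10.3 to 177 times the S1 level of the same mouse. *Kcnmb1* to *Kcnmb4* and the leucine-rich repeat genes *Lrrc26* and *Lrrc52* encode auxiliary subunits of BK. The *Kcnmb* genes reached 33.0 CPM at most in any class, and in PT they were at 0 to 1.38 CPM. *Lrrc26* was counted mainly in IMCD type nuclei, at 33.0, 43.5, 24.3 and 118 CPM, and in DMEP, at 11.3 to 43.5 CPM, and *Lrrc52* in DCT, at 60.1 to 110 CPM.

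*Kcnj10* (chromosome 1, 172341210 to 172374085) and *Kcnj16* (chromosome 11, 110968033 to 111027968) encode the subunits of the main potassium channel of the blood side of the distal tubule, which senses blood potassium and sets the activity of the sodium chloride cotransporter in DCT. *Kcnj10* was highest in CNT, at 285 and 252 CPM in control mice, against 315 and 226 CPM in knockout mice, followed by DCT at 179, 187, 209 and 236 CPM. These classes overlapped over the 4 mice but not over the control mice alone. TAL held 72.7 to 87.9 CPM, below every DCT value. Within CD-PCs, *Kcnj10* was counted in Aqp3-high nuclei at 72.7 to 213 CPM and in Aqp3-low nuclei at 94.9 to 293 CPM, whereas IMCD type nuclei held 3.48 to 6.79 CPM. In PT it stood at 0.853 to 3.31 CPM.

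*Kcnj16* spread much further. It was highest in CNT, at 1196 and 1241 CPM in control and 1100 and 1072 CPM in knockout mice, above DCT at 798 to 1044 CPM in every mouse. PT (697 to 824 CPM) and TAL (748 to 830 CPM), which overlapped, held it at a similar level, and CD-PCs at 464 to 644 CPM. So PT carried *Kcnj16* at 63.1% of its CNT level but *Kcnj10* at 1.10% (means of the control mice). IMCD type nuclei repeated this, with *Kcnj16* at 355 to 495 CPM and few *Kcnj10* UMIs (2 to 7 per mouse). Thin limb (tL) nuclei of the descending type held *Kcnj16* at 319 to 503 CPM, and those of the ascending type at 21.5 to 81.0 CPM. In TAL, nuclei with cortical markers such as *Enox1* held 1.55 to 1.83 times the level of the other TAL nuclei of the same mouse, while *Kcnj1* differed by a ratio of only 0.923 to 1.03. CD-ICs, at 70.2 to 132 CPM, were the broad tubule class with the lowest *Kcnj16*.

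Promoter windows of 250 bases before the start, from RefSeq on GRCm38.p6, were on hand for 5 of the 8 genes, 8 windows in all with 4 of them for *Kcnj16*. They were searched for the AP-2 core GCCNNNGGC, which reads the same on both strands. It was found once in 2 windows, that of *Kcnj10* and 1 of the 4 of *Kcnj16*, and in 13.7% of the 32851 windows of all genes. Both are shown because they belong to the pair of genes whose products form 1 channel, with the match in capitals, on the plus strand and from 5' to 3'. They cover chr1:172340960-172341209 and chr11:110967783-110968032. The match began 70 bases before the start of *Kcnj10* and 117 bases before that of *Kcnj16*, and a match of letters is a description and no sign of binding.
Kcnj10: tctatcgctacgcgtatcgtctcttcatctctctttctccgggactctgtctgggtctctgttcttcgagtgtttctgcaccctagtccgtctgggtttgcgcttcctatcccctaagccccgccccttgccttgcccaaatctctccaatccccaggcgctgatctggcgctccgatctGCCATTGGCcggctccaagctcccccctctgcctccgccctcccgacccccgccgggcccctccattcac
Kcnj16: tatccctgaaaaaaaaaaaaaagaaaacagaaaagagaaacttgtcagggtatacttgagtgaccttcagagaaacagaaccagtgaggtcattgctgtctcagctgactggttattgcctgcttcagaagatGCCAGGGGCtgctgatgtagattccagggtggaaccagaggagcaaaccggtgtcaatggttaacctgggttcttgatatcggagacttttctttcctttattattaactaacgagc

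*Kcnj15* (chromosome 16, 95257558 to 95300260) encodes another inward rectifier subunit, and was a proximal gene. PT held 1182 and 946 CPM in the control mice and 1269 and 1503 CPM in the knockout mice, 5.92 times the next class by control means, and no other class reached the PT range in any mouse. Levels overlapped in PT-S1 (1224 to 1894 CPM) and PT-S2 (1199 to 1754 CPM) and were lower in PT-S3 (484 to 616 CPM), with an S1 to S3 ratio of 2.26 to 3.1 within a mouse. *Kcnj16* was also lower in PT-S3, at 322 to 559 CPM, than in PT-S1, at 826 to 1175 CPM, and *Kcnma1* ran the other way. Outside PT, the median of *Kcnj15* over the other 11 classes was 89.3 and 132.9 CPM in the mouse 1 libraries of control and knockout and 43.9 and 62.9 CPM in the mouse 2 libraries. With the profile of free RNA subtracted these medians were 52.6, 35.0, 96.6 and 40.2 CPM in control 1, control 2, knockout 1 and knockout 2. In tL, TAL, DCT, CNT, CD-PCs and CD-ICs mouse 1 of each group exceeded mouse 2, and so did *Lrp2*, the proximal tubule receptor megalin (134 and 79.6 CPM in TAL of control mice, 170 and 36.8 CPM in knockout mice). The part of free PT RNA in these values was not tested.

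**Figure D2:**
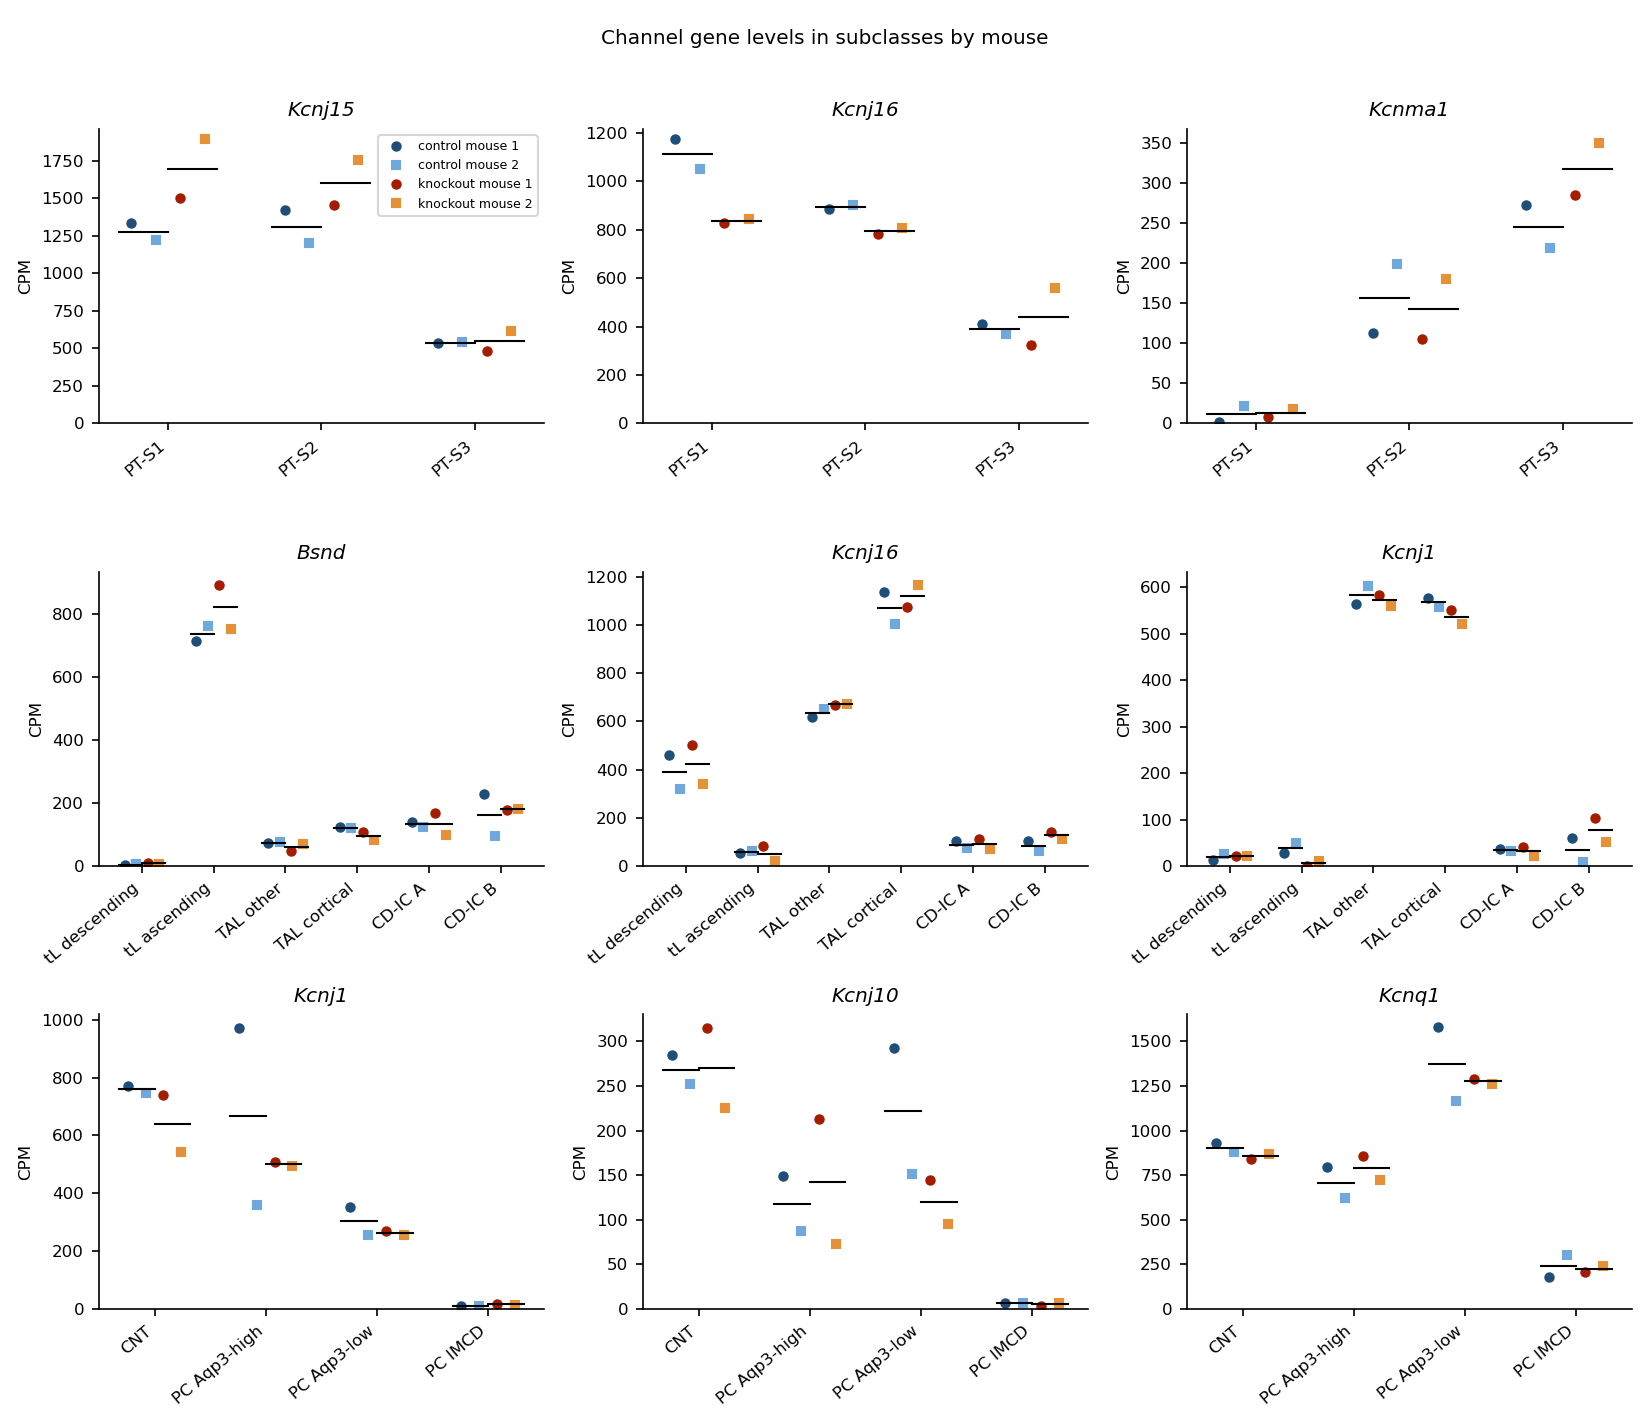
Level in CPM of 7 of the channel genes in subclasses, 1 point per mouse with black bars for group means. *Kcnma1* is highest and *Kcnj15* and *Kcnj16* lowest in PT-S3; *Bsnd* peaks in the ascending type thin limb, where *Kcnj16* is low, and *Kcnj16* is higher in cortical type than in the other TAL nuclei; *Kcnj1* and *Kcnj10* are lowest in IMCD type nuclei.

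*Kcnq1* (chromosome 7, 143106877 to 143427050) encodes a voltage-gated potassium channel, and *Kcne1* (chromosome 16, 92346001 to 92359468) the small subunit that slows its opening and raises its current. *Kcnq1* was highest in CD-ICs, at 958 and 1265 CPM in control and 778 and 1409 CPM in knockout mice, followed by CNT at 842 to 927 CPM, which overlapped it. DCT held 465 to 737 CPM, CD-PCs 364 to 523 CPM and podocytes 214 to 362 CPM. Type A intercalated nuclei, which carry *Slc4a1*, exceeded type B nuclei, which carry *Slc26a4*, in each mouse: type A stood at 1319, 1392, 1226 and 1716 CPM and type B at 700, 954, 535 and 1006 CPM. Aqp3-low nuclei held as much (1164 to 1582 CPM), Aqp3-high nuclei less (620 to 859 CPM) and IMCD type nuclei the least of the CD-PCs (180.5 to 300.3 CPM). *Kcnq1ot1*, an RNA read from the other strand within *Kcnq1*, was counted in every class, at 475 to 894 CPM in CD-ICs and 1059 to 1599 CPM in podocytes. Whether reads were assigned by strand is not given in the sources used here, and whether reads of the pair were mixed was not tested.

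*Kcne1* was a gene of few UMIs with a narrow domain. It was counted in CNT at 166 and 81.2 CPM in control mice, against 199 and 125 CPM in knockout mice, and in CD-PCs at 32.6, 20.4, 186 and 44.2 CPM in control 1, control 2, knockout 1 and knockout 2. Within CD-PCs it was counted in the Aqp3-high and Aqp3-low nuclei, as IMCD type nuclei had 2, 0, 1 and 0 UMIs in the same order. Type B intercalated nuclei had 5, 0, 23 and 5 UMIs, and type A nuclei 0, 0, 0 and 1. The many PT nuclei gave 0.171 to 2.23 CPM and TAL 0.348 to 0.920 CPM. Of the other known partners of *Kcnq1*, *Kcne4* reached 24.1 to 98.9 CPM in interstitial cells.

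*Bsnd* (chromosome 4, 106483456 to 106492243) was highest in a small set of nuclei, the tL nuclei of the ascending type. There it stood at 713 and 762 CPM in the control mice and 890 and 753 CPM in the knockout mice, on 26, 214, 33 and 70 UMIs. The descending type held 4.50 to 10.8 CPM, so the broad tL value (58.2 to 238 CPM) depended on how many ascending nuclei a library held, which was 19, 106, 15 and 33. CD-ICs held 192 and 115 CPM in control and 174 and 134 CPM in knockout mice. TAL (71.3 to 87.8 CPM), DCT (58.8 to 75.6 CPM) and CNT (60.2 to 112 CPM) overlapped, and CD-PCs stood at 1.94 to 4.70 CPM. The group of classes with *Bsnd* was thus the ascending thin limb through to CNT, and the intercalated but not the principal cells. Within TAL, cortical type nuclei held more *Bsnd* than the others, by a ratio of 1.18 to 2.21 in the same mouse.

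Over the 19 classes and subclasses with their own nuclei, the genes whose log2 levels in the control mice ran closest to each channel gene were named among 13347 genes. These correlations are descriptions over classes that share libraries. *Scnn1g* and *Hsd11b2*, a sodium channel subunit and the enzyme that guards the aldosterone receptor, led for *Kcne1* (r = 0.90 for each), and *Acsm2*, *Keg1* and *Hykk* for *Kcnj15* (r = 0.96 to 0.97). *Kcnj1* ran closest to Gm47708 (r = 0.92), *Bace1* (r = 0.90) and *Tmem65* (r = 0.89), and *Kcnj10* to *Slc25a43* (r = 0.90), *Nudt4* and *Kctd1* (r = 0.89 for each). The closest to *Kcnq1* were 4933417O13Rik (r = 0.94), Gm20732 and *Nr3c2*, the aldosterone receptor (r = 0.88 for each). *Kcnma1* had *Ctnna2*, *Fads2* and *Mfsd2a* (r = 0.84 for each), and *Kcnj16* had the loosest matches, *Ccdc138*, *Anks6* and *Sesn2* (r = 0.80 to 0.83). Gm13075 and Plekhd1os were among the closest to *Bsnd* (r = 0.88 and 0.84), and Gm15810 was next to *Hsd11b2* for *Kcne1* (r = 0.89). Among the 8 genes themselves the closest pair was *Kcnj1* with *Kcnj10* (r = 0.83), while *Kcnj10* and *Kcnj16* gave r = 0.49.

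Whether loss of *Tfap2a* changed these genes was asked in each class by edgeR's quasi-likelihood test on UMIs summed per mouse, wherever a gene reached 10 UMIs in total. None of the 75 tests of the 8 genes in the 12 broad classes passed a Benjamini-Hochberg adjusted p of 0.05, where 0.00303% of all gene tests in these classes passed. By class these were 0.00563% in PT, 0.00677% in TAL and 0.0154% in endothelial cells, and 0% in the other 9. At an unadjusted p under 0.05 there were 6 of the 75 (8%, against 2.96% of all gene tests), all higher in the knockout mice, and DESeq2 gave 0 past the adjusted threshold and 3 at the unadjusted one. Among the 6 was *Kcne1* in CD-ICs, which reached 10 UMIs only through the knockout mice, so its direction carries no weight. In the 12 subclasses 0 of 81 tests passed, where 0.0108% of all did, and 6 had an unadjusted p under 0.05 (2.87% of all), 5 of them higher in the knockout mice. DESeq2 gave 0 of either kind there. Among these 6 was *Kcne1* in type B intercalated nuclei, which are part of the CD-ICs and passed the filter in the same way. The share of all genes that passed was 0.0075% in PT-S1, 0.027% in PT-S3, 0.0133% in ascending type tL, 0.0081% in cortical type TAL, 0.0483% in Aqp3-high, 0.00805% in IMCD type and 0.0213% in type B intercalated nuclei, and 0% in the other 5 subclasses. Only *Kcnj15*, *Kcnj16* and *Kcnq1* had enough UMIs to be tested in all 12 broad classes. In data simulated for CD-PCs, 60.8% of 4-fold changes but 3.23% of 2-fold changes were recovered, so changes of the smaller kind would mostly be missed.

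**Figure D3:**
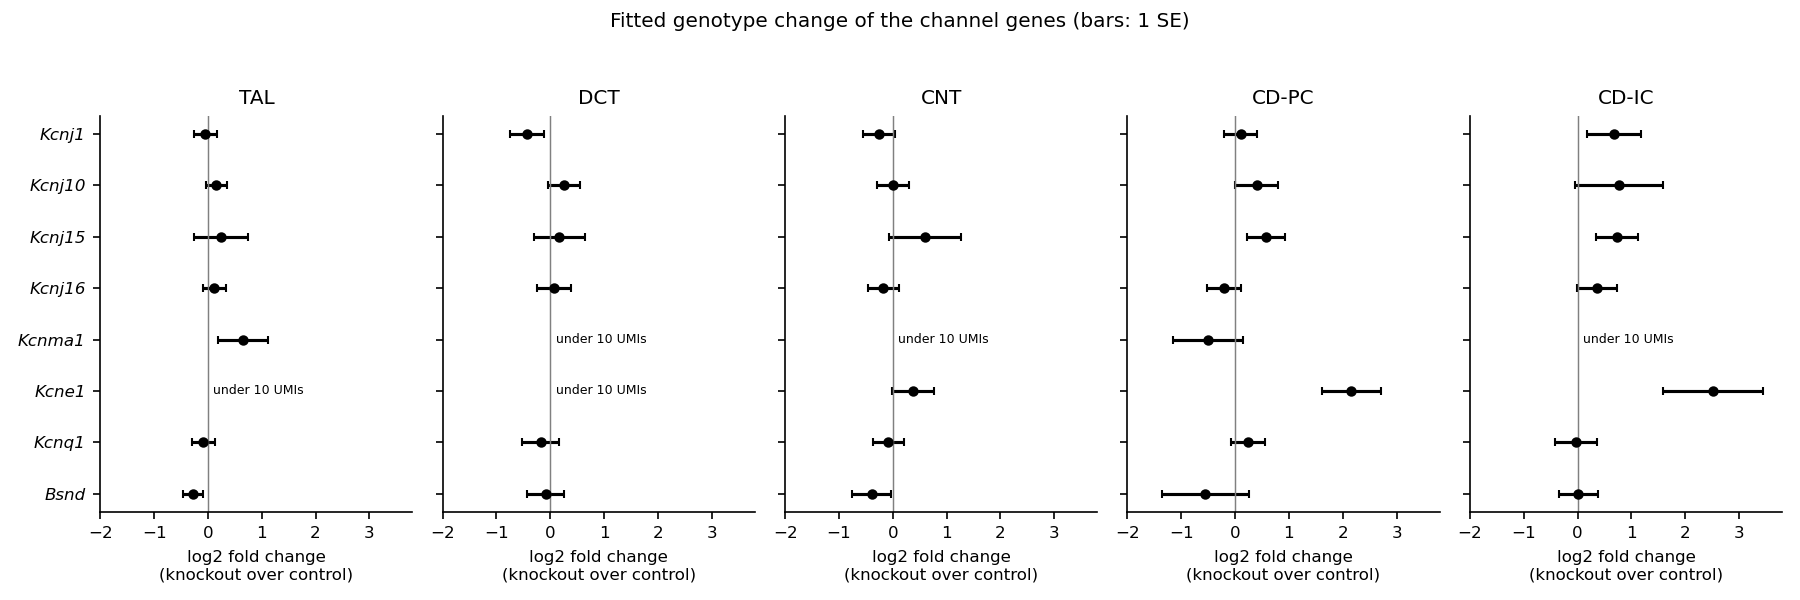
Fitted log2 fold change, knockout over control, of the 8 channel genes in 5 classes of the distal nephron and collecting duct, with bars of 1 SE. Points of *Kcnj1*, *Kcnj10*, *Kcnj16* and *Kcnq1* lie near 0 in TAL, DCT and CNT, and the farthest from 0 are *Kcne1* in CD-PCs and CD-ICs; no change passed the adjusted threshold.

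None of the 8 genes had a called change in the broad class where it was highest, though simulated 2-fold changes were mostly missed. The log2 fold change of knockout over control was -0.43 ± 0.32 (SE) for *Kcnj1* in DCT, 0.01 ± 0.30 for *Kcnj10* and -0.17 ± 0.29 for *Kcnj16* in CNT, 0.36 ± 0.21 for *Kcnj15* in PT, -0.44 ± 0.36 for *Kcnma1* in DMEP, -0.02 ± 0.39 for *Kcnq1* and 0.02 ± 0.36 for *Bsnd* in CD-ICs. In CD-PCs, where Hoxb7Cre acts, it was 0.11 ± 0.31 for *Kcnj1*, 0.41 ± 0.40 for *Kcnj10*, -0.20 ± 0.32 for *Kcnj16* and 0.24 ± 0.31 for *Kcnq1*. The edgeR adjusted p was 0.998 or above for each of these. An exact permutation test of 2 against 2 mice cannot go below p = 0.33, so separation of the groups alone says little. For *Kcnq1* in CD-PCs the levels were 364 and 471 CPM in the control mice beside 523 and 471 CPM in the knockout mice. *Kcnj10* in CD-PCs shows the spread within a group: the knockout mice, at 84.4 and 30.8 CPM, lay on either side of the control mice, at 47.1 and 41.8 CPM.

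*Kcne1* was the member with the largest fitted change in the collecting duct. In CD-PCs its log2 fold change was 2.16 ± 0.54 (SE), with an unadjusted p of 0.00222 and an adjusted p of 1.00 by edgeR. Both knockout mice lay above both control mice, but 44.2 CPM in knockout mouse 2 was close to 32.6 CPM in control mouse 1, and 186 CPM in knockout mouse 1 carried most of the difference. With the filter on low counts removed, edgeR's adjusted p was 7.11e-07 (log2 fold change 2.15). In that run 0.138% of all genes passed in CD-PCs, against 0% in the main run. With the replicate number as a block the adjusted p was 6.99e-06 (1.95) by edgeR, where 0.42% of all genes passed. Without knockout mouse 2, which left 1 knockout mouse, the log2 fold change was 2.82. With knockout mouse 1 left out, the difference was 0.74 (log2) in CD-PCs and 0.01 in Aqp3-high nuclei. In Aqp3-high nuclei the groups overlapped, with 130.5 and 21.8 CPM in control mice, against 446 and 65.4 CPM in knockout mice (2.15 ± 0.68, unadjusted p = 0.00670, adjusted p = 0.999 by edgeR). There the test passed without the filter and with the block (log2 fold changes 2.13 and 1.71). In those runs 0.194% and 0.579% of all genes passed in these nuclei, against 0.0483% in the main run. Without control mouse 1, which left 1 control mouse, the log2 fold change was 3.66. In Aqp3-low nuclei the groups did not overlap, with 164 and 146 CPM in control and 424 and 228 CPM in knockout mice (1.02 ± 0.43, unadjusted p = 0.0340, adjusted p = 1.00 by edgeR).

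In CD-ICs *Kcne1* had 5, 0, 23 and 6 UMIs (2.52 ± 0.93, unadjusted p = 0.0225, adjusted p = 0.998 by edgeR). It reached the minimum of 10 UMIs only through the knockout mice, so this value adds no support to that in CD-PCs. Without knockout mouse 2, which left 1 knockout mouse, the log2 fold change in CD-ICs was 3.06. Type B nuclei held 33 of these 34 UMIs. There the principal cell gene *Aqp2* had 27, 4, 59 and 21 UMIs in control 1, control 2, knockout 1 and knockout 2. *Scnn1b* had 13, 2, 27 and 6. Type A nuclei, with hardly any *Kcne1* as given above, had 17, 68, 54 and 35 UMIs of *Aqp2*. They had 36, 54, 31 and 33 UMIs of *Scnn1b*. In CPM, *Scnn1b* stood at 147 to 187 in type A and 15.6 to 87.5 in type B nuclei. *Aqp2* was also higher in type A nuclei, except in control mouse 1. The part of principal cell RNA in the *Kcne1* values of CD-ICs was not tested. In CNT, the broad class with its highest level in the control mice, *Kcne1* overlapped between the groups (0.37 ± 0.39, adjusted p = 0.999 by edgeR). The change in CD-PCs minus that in CNT was 1.60 ± 0.39 (unadjusted p = 0.000170, edgeR adjusted p = 0.206, where 0.0092% of all genes passed). With knockout mouse 1 left out it was 0.70 ± 0.46 (unadjusted p = 0.133), and under 1% mitochondrial UMIs it was 1.06 ± 0.50 (unadjusted p = 0.0342, both by edgeR). In each of CNT, CD-PC, Aqp3-high and Aqp3-low nuclei, mouse 1 of a group exceeded mouse 2 of that group; the share of UMIs outside the nuclei kept was also higher in mouse 1. The share of Aqp3-high and Aqp3-low nuclei among CD-PCs, which held nearly all *Kcne1* UMIs of CD-PCs, also varied, at 18.8% and 11.4% in control mouse 1, 27.8% and 15.2% in control mouse 2, 33.8% and 16.9% in knockout mouse 1, and 20.4% and 20.9% in knockout mouse 2. Damaged nuclei, which were set aside, numbered 302, 62, 644 and 24 in the same order of mice, and a damaged cluster of 174 nuclei had *Kcne1*, *Aqp2* and *Aqp3* among its 10 leading genes. With nuclei under 1% mitochondrial UMIs alone, the *Kcne1* value in CD-PCs was 2.33. The part of these shares and of damaged nuclei in the *Kcne1* values was not tested.

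**Figure D4:**
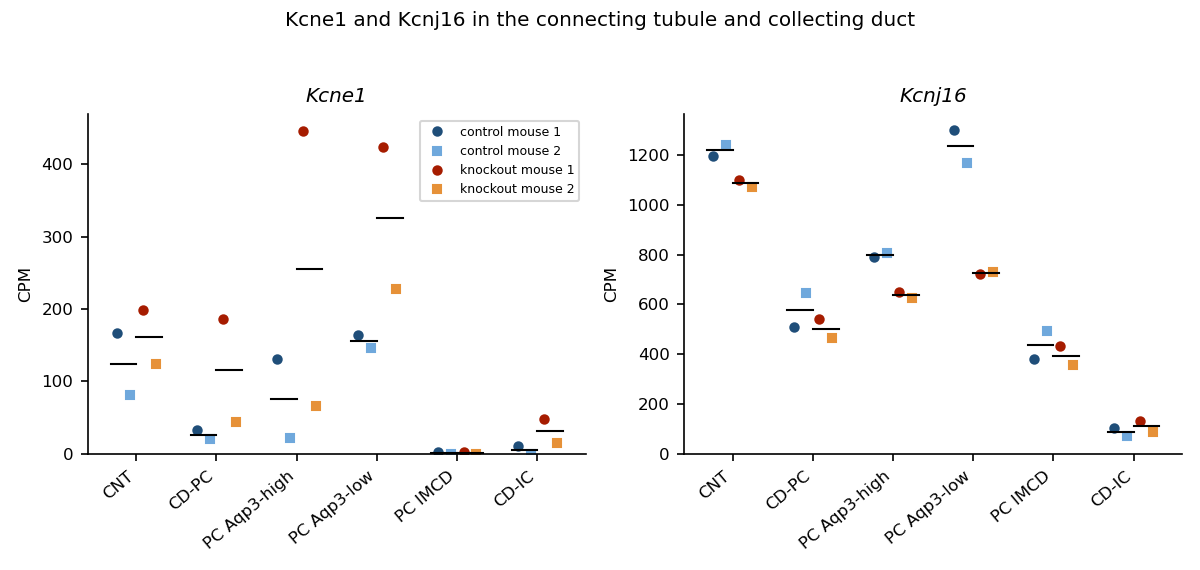
Level in CPM of *Kcne1* and *Kcnj16* by mouse in CNT, CD-PCs, their subclusters and CD-ICs, with black bars for group means. *Kcne1* of knockout mouse 1 stands above the other mice in CNT, CD-PCs, Aqp3-high and Aqp3-low nuclei and CD-ICs, and *Kcnj16* of both knockout mice lies below both control mice in Aqp3-low nuclei; none passed the adjusted threshold.

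In these edgeR tests *Kcnj16* was the only member with an unadjusted p under 0.05 and a lower level in the knockout mice. In Aqp3-low nuclei it stood at 1301 and 1169 CPM in the control mice and 723 and 731 CPM in the knockout mice, with tight pairs and no overlap (-0.82 ± 0.36, unadjusted p = 0.0419, adjusted p = 1.00 by edgeR). Aqp3-high nuclei lay the same way, at 792 and 806 CPM against 650 and 625 CPM (-0.35 ± 0.25), and so did *Kcnj10* in Aqp3-low nuclei, at 293 and 151 CPM against 145 and 94.9 CPM (-0.88 ± 0.47), neither past an unadjusted p of 0.05. The summed level of the 8 TAL markers, all counted, was also lower in the knockout mice. It stood at 2274 and 2223 CPM in Aqp3-low nuclei of control mice and 1224 and 844 CPM in those of knockout mice. In Aqp3-high nuclei it was 2974 and 1039 CPM in control mice, where *Kcnj16* was 792 and 806 CPM, and 586 and 233 CPM in knockout mice. In TAL itself these markers summed to 37943 to 41289 CPM. There *Kcnj16* stood at 748 to 830 CPM and *Kcnj10* at 72.7 to 87.9 CPM. The part of TAL RNA in the *Kcnj16* and *Kcnj10* values was not tested.

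The other values with an unadjusted p under 0.05 came from other classes or from few UMIs. In podocytes *Kcnj15* stood at 148 and 38.1 CPM in control and 242 and 353 CPM in knockout mice (1.45 ± 0.56), and *Kcnj16* at 61 and 76.1 CPM against 114 and 384 CPM (1.83 ± 0.65). Without knockout mouse 1, which left 1 knockout mouse, the *Kcnj16* log2 fold change was 2.45. The 11 PT markers, all counted in podocytes, summed there to 2422 and 685 CPM in control and 3334 and 2117 CPM in knockout mice, and 7 of the 8 TAL markers, with *Cldn16* at 0, to 2405, 2341, 1083 and 3529 CPM; their part was not tested. In endothelial cells *Kcnj15* stood at 211 and 148 CPM against 268 and 313 CPM (0.69 ± 0.27), in type A intercalated nuclei at 51.9 and 41.4 CPM against 144 and 80.2 CPM (1.24 ± 0.44). The 11 PT markers summed to 3532 and 2941 CPM in control and 4118 and 3276 CPM in knockout endothelial cells, and to 1486 and 570.0 CPM against 2548 and 838 CPM in type A nuclei; their part was not tested. *Kcnj1* in DMEP had 4, 6, 11 and 2 UMIs (1.63 ± 0.75, and -0.14 without knockout mouse 1), *Kcnma1* in cortical type TAL nuclei 12, 5, 12 and 38 UMIs (1.49 ± 0.59), and *Kcne1* in type B intercalated nuclei 5, 0, 23 and 5 UMIs (2.11 ± 0.77). All had an adjusted p of 0.997 or above by edgeR.

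The change in a class within the reach of Hoxb7Cre was also set against that in another tubule class, with the mouse as a term. *Tfap2a* itself stood in CNT at 118 and 126 CPM in control and 77.0 and 70.9 CPM in knockout mice. Whether Cre acted in CNT was not tested. Of 7 members tested for CD-PCs against TAL, 7 for CD-PCs against CNT and 6 for CD-ICs against TAL, none passed, where 0%, 0.0092% and 0.00904% of all genes did. *Kcne1* in CD-PCs against CNT was the only one of these 20 with an unadjusted p under 0.05. The differences of *Kcnj1*, *Kcnj10*, *Kcnj16* and *Kcnq1* between CD-PCs and TAL were 0.16 ± 0.30, 0.20 ± 0.39, -0.30 ± 0.29 and 0.35 ± 0.26 (log2, SE). Single mice decided some of them: for *Kcnj10* the difference was -0.75 with knockout mouse 1 left out and 0.83 with knockout mouse 2 left out, and for *Kcnj1* it was -0.11 with knockout mouse 1 and -0.09 with control mouse 2 left out. Between CD-ICs and TAL, that of *Kcnj10* was 0.61 ± 0.61, and -1.97 and 1.49 with knockout mouse 1 and 2 left out in turn.

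The wider lists of channel genes had no member past the adjusted threshold of edgeR in any class or subclass. They held 14 partners of the 8 genes, 92 other genes whose symbols start with Kcn and 31 chloride channel genes. The genes in 2 lists included *Kcnq1ot1*, which is the RNA read from the other strand within *Kcnq1* and not a channel subunit. In CD-PCs, 7 partners, 27 potassium and 20 chloride channel genes were tested, 0 passed, and the median log2 fold changes were 0.06, -0.09 and 0.00, beside 0.00 over all 13573 genes. Among those with an unadjusted p under 0.05 in CD-PCs were *Kcnh5* and *Kcnc2*, higher in the knockout mice, and *Kcnab1*, lower, the last named after its values were seen. In CD-ICs *Kcnq3* stood at 365 and 287 CPM against 158 and 134 CPM (-1.15 ± 0.32, unadjusted p = 0.00549, adjusted p = 0.998 by edgeR). *Kcnd2* also had an unadjusted p under 0.05 there (-3.81 ± 1.07, unadjusted p = 0.00538, adjusted p = 0.998 by edgeR), named after its values were seen. The 8 TAL markers summed in CD-ICs to 2052 and 1460 CPM in control and 1091 and 1207 CPM in knockout mice, and *Slc12a1* stood at 584 and 493 CPM against 143 and 316 CPM; their part was not tested.

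The most abundant genes of these lists differed by class. In PT they were *Kcnk5*, a background potassium channel, at 275 to 428 CPM, and *Lrrc8d* and *Clcn3*, of the volume-regulated anion channel and of an endosomal chloride exchanger, at 310 to 356 CPM and 241 to 268 CPM. DMEP was marked by *Kcnk2*, at 663 to 877 CPM, and interstitial cells by *Kcnt2*, at 728 to 1384 CPM. In CD-PCs *Kcnq1ot1* (318 to 408 CPM) had the most UMIs of these lists, followed by *Kcnk2* (210 to 345 CPM) and *Ano6* (164 to 278 CPM), and in CD-ICs *Kcnq1ot1* and *Clcn5*, the last an endosomal exchanger at 337 to 456 CPM, were among the most abundant. None of these passed the adjusted threshold between genotypes.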

How the data were processed

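Nuclei of 4 mice, 1 library each, were profiled with 10x 3' chemistry, and the authors counted UMIs per gene with Cell Ranger 3.0.2 on mm10, per the labels. The deposited values are raw UMI counts per gene and barcode, with total UMIs of 22179410 to 44964099 per library. Whether intronic reads and strand were used is not given in the sources used here. The members and the gene lists were chosen with earlier results of these data known.

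Among the 10000 barcodes with most UMIs in each library, nuclei with 500 to 4000 genes and at most 5% mitochondrial UMIs were kept, 27341 in all. They were integrated with Seurat 5.3.0 (2000 genes, 30 dimensions, resolution 0.5) with channel genes left out. Clusters were named from fixed marker lists, by limits set after the clusters were seen; damaged, mixed and unnamed clusters were set aside (24 to 644, 57 to 132 and 44 to 64 nuclei per library). Called doublets (236 to 512 per library) were kept in the main values and left out as an alternative. Cell type names were rebuilt here and may differ from those of the study.

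For each class, raw counts were added up by mouse. Genes that reached 10 UMIs in total were tested by edgeR 4.0.16 (R 4.3.3; TMM, quasi-likelihood, two-sided, Benjamini-Hochberg within a class, called at an adjusted p under 0.05), with DESeq2 1.42.0 as an alternative. An exact permutation test of 2 against 2 mice cannot go below p = 0.33. A gene at 0 allows up to 3 counts, a limit for counting error only. In data simulated for CD-PCs on 13573 genes, edgeR recovered 60.8% of the 4-fold and 3.23% of the 2-fold changes, with 6 false calls among 71. Named genes were the 8 members in every class, the 3 genes closest to each by Pearson correlation of log2(CPM + 1) over classes (at least 100 UMIs in control nuclei), and the 3 most abundant genes of each other list in a class; some of these are not reported here. Filters, normalization, clustering, doublets, free RNA and single mice were varied.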

Additional observations from a re-analysis of the deposited data

How the results depend on the processing

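With 2 mice a group, small changes would be missed. Of 381 alternative values for 27 single-gene results, 20 in 10 results changed direction and 9 passed the threshold where the reported value did not; the causes were not tested. The count of calls among the 8 genes, 0 as reported, was 1 in broad classes and 1 in subclasses with no filter. These were *Kcne1* in CD-PCs, where 0.138% of all genes passed, and in Aqp3-high nuclei, where 0.194% did. On leaving out 1 mouse some tests also passed, but the lone mouse is then assumed to vary like the other group. Without knockout mouse 1 they were *Kcnj16* in podocytes and *Kcnma1* in cortical type TAL. Without knockout mouse 2 they were *Kcne1* in CD-PCs and CD-ICs and *Kcnj15* in descending type tL, and without control mouse 1 *Kcne1* in Aqp3-high nuclei. The interaction tests gave 0 calls of the 8 genes in every alternative run; DESeq2 was not run for them. Some of these differences turned direction, among them *Kcnj10* between CD-PCs and TAL under 1% mitochondrial UMIs (-0.06) and those given above for single mice left out. Under 1% mitochondrial UMIs, some classes held too few nuclei, and the resolution of 0.8 and the clustering with channel genes were not run for subclasses. The highest class moved to DCT for *Kcnj10* under 1% mitochondrial UMIs, to CNT for *Kcnj1* in control mouse 1 alone and to tL for *Bsnd* in control mouse 2 alone.

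With the replicate number as a block, 1 test passed in broad classes (*Kcne1* in CD-PCs) and 1 in subclasses (*Kcne1* in Aqp3-high nuclei). In that run 0.42% of all genes passed in CD-PCs and 0.579% in Aqp3-high nuclei, against 0% and 0.0483% in the main run. *Kcnj10* in CNT was -0.0051 with the block. Deviations of same-numbered mice from their group means correlated at 0.402 to 0.503, but with 2 pairs and no label that ties the mice, the numbers were not taken to pair them.

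Log2 fold changes that turned direction otherwise were *Kcnj10* in CNT with channel genes in clustering (-0.0141) and free RNA subtracted (-0.0226), *Kcnj16* in CNT (0.0332) and *Kcnq1* in CD-ICs (0.0673) under 1% mitochondrial UMIs, *Bsnd* in CD-ICs by DESeq2 (-0.0007), and *Kcnj15* (-0.0705) and *Kcnma1* (1.0837) in CD-PCs without called doublets. Leaving out 1 mouse gave -0.1350 to 2.4832 for *Kcnj1* in DMEP, -0.2370 to 0.1975 for *Kcnj10* in CNT, -0.0445 to 1.0009 for *Kcne1* in CNT, -0.5217 to 0.3279 for *Kcnq1* in CD-IC, -0.3271 to 0.4361 for *Bsnd* in CD-IC, -0.2133 to 0.3886 for *Kcnj1* in CD-PC, -0.5385 to 0.9138 for *Kcnj10* in CD-PC and -0.0889 to 0.9894 for *Kcnj15* in CD-PC.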
